A study of Mus musculus with 8 samples.

Results

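The genes described here are 10 genes of the MHC class I antigen presentation pathway, followed in the mouse stomach after removal of the adrenal glands. They are the class I chain genes H2-K1, H2-D1, H2-T23 and H2-Q4, the light chain gene B2m, the peptide transporter genes Tap1 and Tap2, the immunoproteasome genes Psmb8 and Psmb9, and Nlrc5, which encodes the activator of class I genes. They were taken by gene symbol, and all 10 were found among the 24481 genes of the deposited table and passed the filter on low values, as did 16889 genes in all. RNA sequencing compared 4 stomach samples from mice 3 days after adrenalectomy, the surgical removal of the adrenal glands, with 4 samples from mice 3 days after a sham operation. The study addressed how glucocorticoids bear on inflammation of the stomach. Every mouse was a wild-type female of the inbred strain C57BL/6J, and no drug or transgene was named. The sources used here give neither age nor whether each sample was 1 mouse, so a p-value refers to the variation among these 8 samples, which may be technical. Adrenalectomy removes the source of corticosterone, aldosterone and adrenaline together. Stomach RNA was sequenced in bulk, so a higher share of cells of a type and more RNA per cell cannot be told apart.

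MHC class I molecules are heavy chains that pair with beta-2-microglobulin and show peptides from inside the cell to CD8 T cells and natural killer cells. The proteasome cuts proteins into these peptides, and immune cells and cells exposed to interferon build an immunoproteasome in which inducible subunits replace the constitutive catalytic ones. The TAP transporter, a dimer of Tap1 and Tap2, carries the peptides into the endoplasmic reticulum, where they are loaded. Nlrc5 is drawn to an assembly of DNA-binding factors on class I promoters, and interferon raises many genes of the pathway. Glucocorticoids are known to restrain inflammatory gene expression in many tissues.

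Of the 10 genes, 8 lie on chromosome 17 in the mouse MHC, B2m on chromosome 2 and Nlrc5 on chromosome 8, in the RefSeq annotation of GRCm38.p6. Psmb9, Tap1, Psmb8 and Tap2 are direct neighbours there, in that order, between the class II genes H2-DMb1 and H2-Ob. Psmb9 and Tap1 are read in opposite directions, with 225 bases between their start sites. RefSeq promoter sequences were matched for 8 of the 10 genes, all but Tap2 and Nlrc5. The 250 bases before the start site of 4 genes are shown because they cover the 2 classical heavy chains, the light chain and the promoter shared with Psmb9. Sequences run 5′ to 3′ along the gene's own strand, and capitals mark letters that match the motifs named next.
H2-K1, chr17:34000348-34000597, minus strand: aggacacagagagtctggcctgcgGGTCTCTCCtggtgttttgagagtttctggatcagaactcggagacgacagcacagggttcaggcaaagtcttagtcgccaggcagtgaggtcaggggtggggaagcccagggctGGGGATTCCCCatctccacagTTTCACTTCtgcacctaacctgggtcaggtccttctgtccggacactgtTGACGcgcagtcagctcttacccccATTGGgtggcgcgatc
H2-D1, chr17:35262844-35263093, plus strand: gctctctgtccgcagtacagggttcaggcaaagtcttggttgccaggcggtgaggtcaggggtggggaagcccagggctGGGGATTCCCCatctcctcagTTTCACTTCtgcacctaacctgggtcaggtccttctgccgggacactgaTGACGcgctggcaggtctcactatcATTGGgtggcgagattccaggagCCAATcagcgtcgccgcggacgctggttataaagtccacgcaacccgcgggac
B2m, chr2:122147437-122147686, plus strand: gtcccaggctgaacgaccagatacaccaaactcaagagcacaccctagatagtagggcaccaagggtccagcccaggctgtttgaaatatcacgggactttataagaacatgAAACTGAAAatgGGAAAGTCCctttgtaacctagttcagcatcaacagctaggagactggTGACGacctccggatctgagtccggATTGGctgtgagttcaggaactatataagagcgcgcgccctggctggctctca
Tap1, chr17:34187306-34187555, plus strand: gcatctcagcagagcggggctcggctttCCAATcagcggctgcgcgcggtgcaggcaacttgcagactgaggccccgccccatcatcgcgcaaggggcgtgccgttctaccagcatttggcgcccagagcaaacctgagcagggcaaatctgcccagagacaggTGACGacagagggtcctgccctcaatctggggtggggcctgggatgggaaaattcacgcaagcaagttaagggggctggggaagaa

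The motifs searched on both strands were CCAAT, the core of the Y box, TGACG, a core of the X2 box, GGANNNNCC, a core of the kappaB element, and AAANNGAAA and GAANNGAAA, 2 patterns of the interferon-stimulated response element. This set of motifs, and the length of each, was chosen after the sequences and earlier matches had been read. CCAAT was found in 7 of the 8 windows, all but Psmb8, against 33.8% of 32851 RefSeq windows of the same length. TGACG was found in 6 of 8, against 17.8% of all windows, and GGANNNNCC in H2-K1, H2-D1, H2-Q4 and B2m, against 42.3%. In H2-Q4 the TGACG began 73 bases before the start site, just after a reversed CCAAT at 79. In H2-K1, H2-D1 and B2m it lay ahead of the reversed CCAAT. AAANNGAAA was found in B2m and H2-T23, against 9.37% of all windows, and GAANNGAAA in H2-K1, H2-D1 and H2-Q4, against 6.31%. The windows of Tap1 and Psmb9 overlap and share the same CCAAT and TGACG letters, and the heavy chain windows are related in sequence. The best local alignment of H2-K1 and H2-D1 held 161 identical bases in 177 columns. ACANNNTGT, the core of the glucocorticoid response element, was in none of the 8 windows and in 5.84% of all windows. A match describes letters in a window and says nothing of binding.

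All 10 genes had a higher mean after adrenalectomy, by 1.13-fold to 1.38-fold, and 3 of them, H2-Q4, H2-T23 and B2m, rose past the threshold of an adjusted p of 0.05 over all genes in limma. Across all tested genes 0.93% were called higher by the same rule, and 1.71% in either direction. At an unadjusted p under 0.05 all 10 were higher, against 9.73% of all genes higher and 19.2% in either direction. The median log2 difference, adrenalectomy minus sham, was 0.38 over the 10 genes and -0.000875 over all tested genes. The other 7 genes had adjusted p-values of 0.0566 to 0.192. The samples of the 2 groups did not overlap in 9 of the 10 genes, Nlrc5 being the exception, and 6.3% of all tested genes lay wholly higher and 6.13% wholly lower after adrenalectomy. Log2 values are on the scale deposited by the authors, on which the change of genes with low values can be understated. No counts are in the table, so the depth is unknown.

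**Figure D1:**
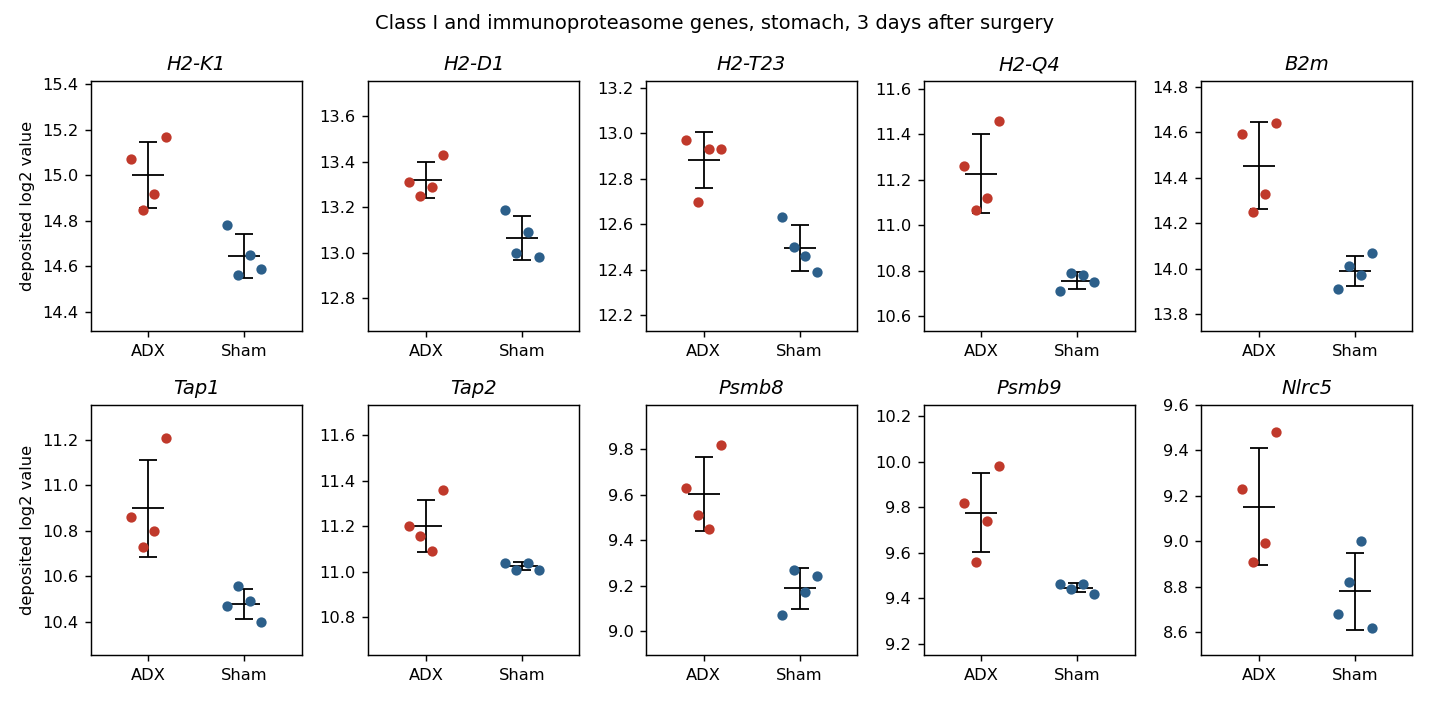
Deposited log2 value of each of the 10 genes (vertical axis) in the 4 adrenalectomy samples (ADX, red) and 4 sham samples (blue), with the mean and SD in black. Each panel spans the same height, and the groups are apart in every panel but that of Nlrc5.

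H2-K1 encodes one of the classical class I heavy chains of this strain. Its deposited log2 values were 15.07, 14.85, 14.92 and 15.17 in adrenalectomy replicates 1 to 4, against 14.78, 14.56, 14.65 and 14.59 in sham replicates 1 to 4. The groups were apart, by 0.07 between the lowest adrenalectomy and the highest sham sample. The log2 difference was 0.36 ± 0.077 SE (adjusted p = 0.0612), so H2-K1 did not pass.

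H2-D1, the other classical heavy chain gene, stood at log2 values of 13.31, 13.25, 13.29 and 13.43 after adrenalectomy, against 13.19, 13.00, 13.09 and 12.98 after sham surgery. Sham replicate 1 was the highest sham sample for both classical genes and lay 0.06 below the lowest adrenalectomy sample for H2-D1. The log2 difference of H2-D1 was 0.25 ± 0.055 SE (adjusted p = 0.0613), the second smallest of the 10.

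H2-T23 encodes Qa-1, a nonclassical class I molecule that presents leader peptides of other class I chains and is recognised by natural killer cells. Its log2 values were 12.97, 12.70, 12.93 and 12.93 after adrenalectomy, against 12.63, 12.50, 12.46 and 12.39 after sham surgery. Adrenalectomy replicate 2 stood apart below the other adrenalectomy samples but above every sham sample. H2-T23 rose by a log2 difference of 0.39 ± 0.071 SE, or 1.31-fold (adjusted p = 0.0431).

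H2-Q4, a nonclassical gene of the Q region, had log2 values of 11.26, 11.07, 11.12 and 11.46 after adrenalectomy, against 10.71, 10.79, 10.78 and 10.75 after sham surgery. The sham samples spanned 0.08 and the adrenalectomy samples 0.39, and the gap between the groups, 0.28, was the widest of the 10 genes. H2-Q4 rose 1.38-fold (log2 difference 0.47 ± 0.079 SE, adjusted p = 0.0361). Class I chains share sequence, and the division of reads among them is uncertain. Of the 50-base words in the longest coding transcript of GENCODE M21, 8.79% also occurred in transcripts of other genes for H2-K1, 14.3% for H2-D1, 24.3% for H2-Q4 and 28.8% for H2-T23, against 0 for B2m, Psmb8, Psmb9 and Nlrc5.

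B2m encodes beta-2-microglobulin, the light chain common to these heavy chains. Its log2 values were 14.59, 14.25, 14.33 and 14.64 after adrenalectomy, against 13.91, 14.01, 13.97 and 14.07 after sham surgery. Adrenalectomy replicates 1 and 4 were the highest samples. B2m rose 1.38-fold (log2 difference 0.46 ± 0.088 SE, adjusted p = 0.0476).

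Tap1, one chain of the peptide transporter, stood at log2 values of 10.86, 10.73, 10.80 and 11.21 after adrenalectomy, against 10.47, 10.56, 10.49 and 10.40 after sham surgery. Adrenalectomy replicate 4 was the highest sample and all 4 lay above the sham samples. The log2 difference of Tap1 was 0.42 ± 0.098 SE (adjusted p = 0.0788). Tap2, its partner, had log2 values of 11.20, 11.16, 11.09 and 11.36 after adrenalectomy, against 11.04, 11.01, 11.04 and 11.01 after sham surgery. Tap2 had the smallest log2 difference of the 10 genes, 0.18 ± 0.053 SE (adjusted p = 0.13). Neither transporter gene passed, and the difference between them was not tested.

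Psmb8 encodes an inducible catalytic subunit that takes the place of Psmb5 in the immunoproteasome. Its log2 values were 9.63, 9.51, 9.45 and 9.82 after adrenalectomy, against 9.07, 9.27, 9.17 and 9.24 after sham surgery, a log2 difference of 0.42 ± 0.085 SE (adjusted p = 0.0566). Psmb9, which takes the place of Psmb6, stood at 9.82, 9.56, 9.74 and 9.98 after adrenalectomy, against 9.46, 9.44, 9.46 and 9.42 after sham surgery. The 4 sham samples of Psmb9 spanned only 0.04 and the adrenalectomy samples 0.42, and its log2 difference was 0.33 ± 0.080 SE (adjusted p = 0.0847). Both genes were apart between the groups and neither passed.

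Nlrc5 encodes the transactivator of class I genes. Its log2 values were 9.23, 8.91, 8.99 and 9.48 after adrenalectomy, against 8.68, 8.82, 9.0 and 8.62 after sham surgery. Sham replicate 3 lay above adrenalectomy replicates 2 and 3, so the groups overlapped. The log2 difference was 0.37 ± 0.13 SE (adjusted p = 0.192).

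The 10 genes shared an order of samples within the adrenalectomy group. Adrenalectomy replicate 4 was the highest adrenalectomy sample for 9 genes, with H2-T23 highest in replicate 1. Replicate 2 was the lowest for 8 genes, and replicate 3 for Tap2 and Psmb8. Measured from each gene's sham mean, the median over the 10 genes was 0.44, 0.20, 0.29 and 0.58 in adrenalectomy replicates 1 to 4, against 0.00 to 0.01 in sham replicates 1 to 3 and -0.04 in sham replicate 4. The SD among adrenalectomy samples exceeded that among sham samples for 9 of the 10 genes, with ratios of 1.25 to 10.5, and H2-D1 had a ratio of 0.799. Over all tested genes the adrenalectomy SD was the larger for 37.8%. Genes that follow the same samples are not independent of each other, and this spread is given as a description.

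**Figure D2:**
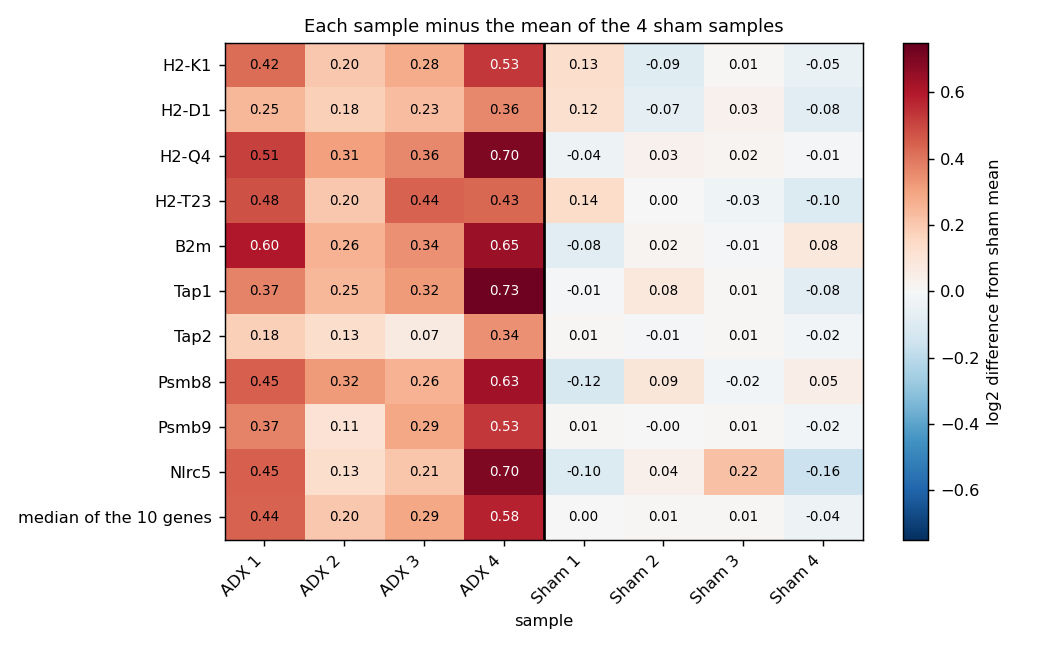
Log2 value of each gene in each sample minus that gene's mean over the 4 sham samples, with adrenalectomy samples (ADX) left of the line and sham samples right of it. Colour and number give the same log2 difference, and ADX 4 holds the highest value of the row for every gene but H2-T23.

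Per length of transcript, B2m had the highest level and Nlrc5 the lowest. The linear value (the deposited value taken off the log scale) per kilobase of the longest coding transcript averaged 26200 ± 3400 for B2m after adrenalectomy and 18900 ± 890 after sham surgery (SD, n = 4 each). H2-K1 followed, with 20300 ± 2100 after adrenalectomy and 15800 ± 1100 after sham surgery. H2-T23 averaged 5150 ± 430 and H2-D1 4870 ± 260 after adrenalectomy, within their spread of each other, against 3930 ± 280 and 4090 ± 270 after sham surgery. H2-Q4 came next, at 1340 ± 170 after adrenalectomy and 966 ± 23 after sham surgery. Tap2, Tap1 and Psmb9 averaged 686 ± 56, 653 ± 100 and 651 ± 78 after adrenalectomy, within their spread of each other on this length. After sham surgery these 3 genes averaged 605 ± 6.8, 485 ± 21 and 516 ± 6.0. Psmb8 averaged 480 ± 56 after adrenalectomy and 359 ± 23 after sham surgery. Nlrc5 averaged 76.1 ± 14 after adrenalectomy and 58.3 ± 7.0 after sham surgery. Several of these levels and neighbours depend on the length used. Over merged exons of all annotated isoforms, H2-K1 averaged 11200 per kilobase after adrenalectomy, and H2-D1 stood above H2-T23, at 3970 against 2620. On that length Tap2, Tap1 and Psmb9 averaged 624, 352 and 241 after adrenalectomy, and Tap1 stood above Psmb9 after sham surgery too, at 261 against 191. B2m remained the highest and Nlrc5 the lowest on both lengths. The length came from an annotation other than the authors'.

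The log2 distance between an inducible proteasome subunit and the constitutive one it replaces was smaller after adrenalectomy for Psmb8 and Psmb9. The log2 value of Psmb8 minus that of Psmb5 was -3.02, -3.14, -3.17 and -2.87 after adrenalectomy, against -3.59, -3.28, -3.45 and -3.44 after sham surgery, a shift of 0.39 (exact two-sided permutation p = 0.0286, adjusted over 3 pairs 0.0429). For Psmb9 minus Psmb6 the values were -3.08, -3.30, -3.15 and -2.95 after adrenalectomy, against -3.44, -3.32, -3.39 and -3.44 after sham surgery, a shift of 0.28 (exact permutation p = 0.0286, adjusted 0.0429). In both pairs the groups did not overlap, and 0.0286 is the smallest p that 4 samples against 4 allow. Groups of 4 that do not overlap always give this p, and Psmb8 and Psmb9 were already apart on their own. Of all tested genes 6.3% lay wholly higher and 6.13% wholly lower after adrenalectomy. Psmb8 and Psmb9 were chosen with earlier results known, so these tests add no independent support. Psmb10, which takes the place of Psmb7, is the third inducible subunit. Psmb10 minus Psmb7 was -2.07, -2.37, -2.02 and -2.12 after adrenalectomy, against -2.35, -2.33, -2.46 and -2.52 after sham surgery (shift 0.27, exact permutation p = 0.0857, adjusted 0.0857). Adrenalectomy replicate 2 lay among the sham samples for this pair, and without it the shift was 0.34 (exact permutation adjusted p = 0.0286). Leaving out the only adrenalectomy sample that overlapped puts the groups apart, so this p follows from that choice and adds no support. The constitutive genes Psmb5, Psmb6 and Psmb7 had log2 differences of 0.03, 0.05 and -0.0053, with adjusted p-values of 0.662, 0.466 and 0.945 in limma. With any 1 of 6 samples left out, all but adrenalectomy replicates 2 and 3, the adjusted exact p for Psmb8 and Psmb9 was 0.0857. Groups that are apart stay apart when a sample is left out, so this higher p came with unequal group sizes and not with overlap.

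**Figure D3:**
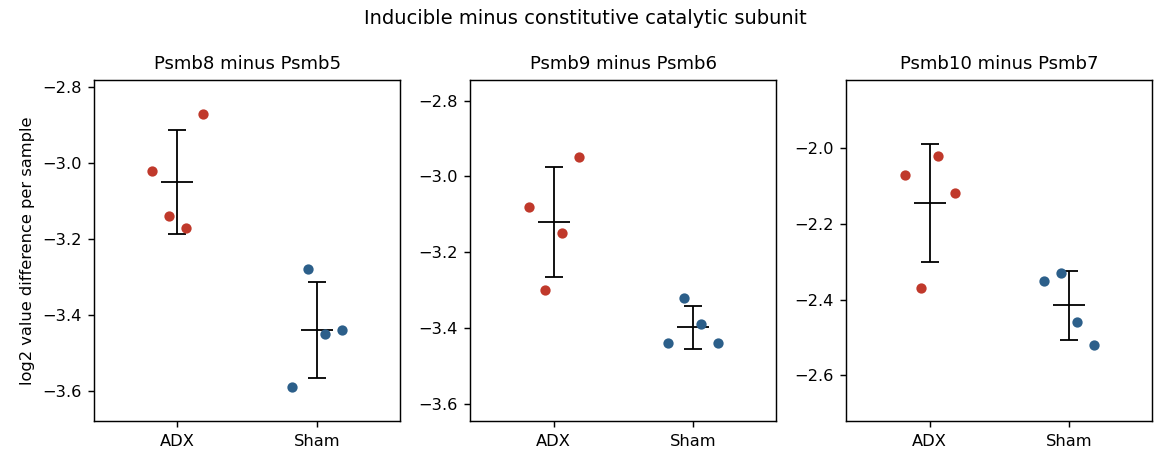
Log2 value of each inducible catalytic subunit minus that of its constitutive counterpart in each adrenalectomy (ADX, red) and sham (blue) sample, with mean and SD in black. ADX lies wholly higher for Psmb8 and Psmb9, and 1 ADX sample lies within the sham range for Psmb10.

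Few other genes of the pathway passed. Of 105 further genes in 6 lists, 88 were tested, of which 3 rose and 1 fell, or 3.41% and 1.14%, beside 0.93% and 0.782% of all tested genes. None of 20 tested class I and class I-like chain genes was called in limma, and their median log2 difference was 0.10. Of the 20, 8 had an unadjusted p under 0.05, beside 19.2% of all tested genes. H2-Q1, a chain gene of the Q region, differed by 0.29 ± 0.080 SE (adjusted p = 0.106), H2-T10 by 0.18, H2-T24 by 0.13 and the class I-related Gm7030 by 0.12. H2-Q6, H2-Q7, H2-T3 and H2-L were among 10 genes of the list below the filter on low values.

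Among 15 genes of peptide loading and trimming, Uggt1, a sensor of glycoprotein folding, rose by 0.13 ± 0.025 SE (adjusted p = 0.0497), and Tpp2, a cytosolic peptidase that trims peptides, fell by 0.21 on the log2 scale (adjusted p = 0.0384). Tapbp, which encodes tapasin, the bridge between TAP and class I chains, differed by 0.17 (adjusted p = 0.0884), and Tapbpl, its relative, by 0.17 (adjusted p = 0.109). The median of that list was 0.06. None of the 4 immunoproteasome partners was called (3 at an unadjusted p under 0.05, beside 19.2% of all tested genes), with a median of 0.14. Psme1 and Psme2, subunits of the proteasome activator PA28, differed by 0.15 (adjusted p = 0.0613) and 0.12 (adjusted p = 0.196). Psmb10 differed by 0.26 (adjusted p = 0.141) and Pomp, a proteasome assembly factor, by 0.02. None of 14 constitutive core subunits was called, with a median of 0.03 and a range of -0.02 to 0.09, with 1 gene at an unadjusted p under 0.05. Psmb4 differed by 0.09, Psmb3 by 0.07 and Psmb2 by 0.05.

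Of 18 factors that bind class I promoters or assist there, Ciita rose by 0.33 ± 0.039 SE (adjusted p = 0.015). Ciita is the relative of Nlrc5 that activates class II genes. Irf1, an interferon-induced factor, differed by 0.36 ± 0.076 SE (adjusted p = 0.0611), and the coactivator genes Crebbp and Kat2b by -0.14 and -0.10. The median of that list was -0.00072. Of 24 interferon ligand and signalling genes, 17 were tested, and the ligand genes Ifng and Ifnb1 were below the filter. Socs1, a feedback inhibitor of cytokine signalling, rose by 0.20 ± 0.036 SE (adjusted p = 0.0398). Irf9, an interferon signalling factor, differed by 0.27 (adjusted p = 0.0504) and Usp18, a brake on the type I receptor, by 0.70 (adjusted p = 0.0667). The median over the 17 was 0.08, with a range of -0.24 to 0.85. Of the 17, 8 had an unadjusted p under 0.05 in limma, beside 19.2% of all tested genes. The groups were apart in 7 genes wholly higher and 1 wholly lower after adrenalectomy, beside 6.3% and 6.13% of all tested genes.

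**Figure D4:**
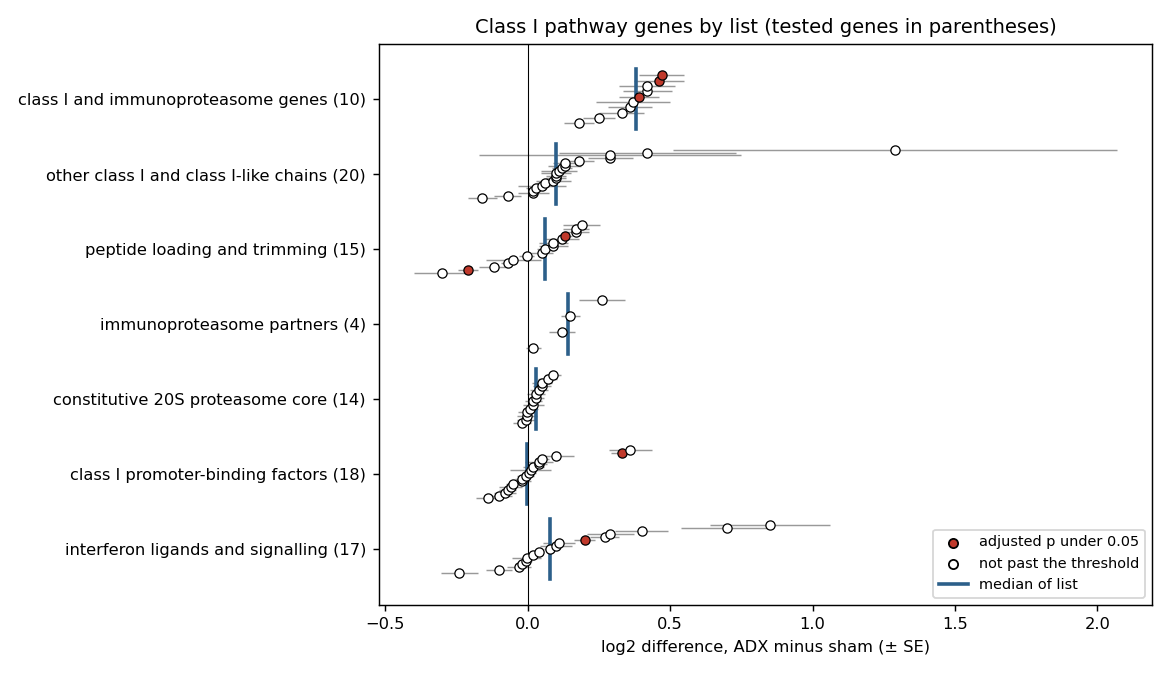
Log2 difference, adrenalectomy (ADX) minus sham, of each tested gene (circles, with SE) in the 10-gene set and 6 further lists, filled where the adjusted p was under 0.05. The blue line is the list median, 0.38 for the 10 genes and at most 0.14 for the others.

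The genes whose profile over the 8 samples was nearest to the median profile of the 10 were C1qa, C1qc and C1qb, which encode the complement subunits made by macrophages, then Coro1a, a leukocyte actin regulator, Pld4, Dtx3l, Ctss, a lysosomal protease of antigen-presenting cells, and Ifi47, an interferon-induced GTPase. Likeness was the root mean square distance of log2 values centred on the sham mean, which ran from 0.0447 for C1qa to 0.0822 for Ifi47. The 10 genes themselves lay at 0.0432, for Psmb9, to 0.15, for Tap2. C1qa stood at log2 values of 10.96, 10.83, 10.81 and 11.08 after adrenalectomy, against 10.54, 10.56, 10.63 and 10.54 after sham surgery. These 8 genes were picked for likeness to a profile that is higher after adrenalectomy. Differences of this size follow from that choice, and the calls are no separate result. Of the 8 genes, C1qa, C1qc, C1qb, Coro1a and Pld4 rose past the threshold, with log2 differences of 0.35, 0.38, 0.36, 0.42 and 0.32. Dtx3l, Ctss and Ifi47 differed by 0.33, 0.39 and 0.36 (adjusted p = 0.0814, 0.0534 and 0.103).

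Several markers of leukocytes were also higher after adrenalectomy, where 0.93% of all tested genes were called higher. Their order of samples was the same only in part. In adrenalectomy replicates 1 to 4 the mean log2 value was 9.32, 9.29, 9.20 and 9.33 for the pan-leukocyte list. For the macrophage list it was 9.67, 9.57, 9.56 and 9.72. Both lists were highest in replicate 4, as were 9 of the 10 genes. Both were lowest in replicate 3, and 8 of the 10 genes were lowest in replicate 2. Of 14 pan-leukocyte markers 7 rose and none fell, with a median log2 difference of 0.22, and their summed linear level was 21600 to 22800 after adrenalectomy, against 20000 to 21500 after sham surgery. Lcp1 made up most of that sum, with a log2 difference of 0.01 (adjusted p = 0.879), and without it the other 13 markers summed to 8260 to 9440 after adrenalectomy, against 7050 to 7200 after sham surgery. Of 14 macrophage markers 5 rose, among them C1qa, C1qb and C1qc, with a median of 0.30. Their summed linear level was 15700 to 18000 after adrenalectomy, against 13000 to 13600 after sham surgery. The mean log2 value of the pan-leukocyte list was 9.20 to 9.33 after adrenalectomy and 9.02 to 9.06 after sham surgery. Since that score did not overlap between the groups, score and operation cannot be told apart in these samples. The part of leukocyte RNA in the 10 differences was not tested beyond this. With the score as a covariate 6 of the 10 log2 differences were positive, at 0.52 for H2-T23, 0.21 for H2-D1, 0.11 for H2-K1, 0.09 for Psmb9, 0.05 for Tap1 and 0.04 for H2-Q4. Those of B2m, Tap2, Psmb8 and Nlrc5 were -0.07, -0.15, -0.14 and -0.25. None of the 10 genes was then called, at an adjusted or an unadjusted p under 0.05, and their standard errors were 0.14 to 0.42, against 0.053 to 0.13 without it. Of 24 T and natural killer cell markers 15 were tested, Cxcr6 rose, and the defining genes Cd3e, Cd3d, Cd3g, Cd8a and Cd8b1 were below the filter. The summed linear level of the tested markers was 542 to 564 after adrenalectomy, against 497 to 534 after sham surgery, and their median log2 difference was 0.01. Cd4 had the highest level of them, with a mean linear value of 176 and a log2 difference of 0.21 (adjusted p = 0.109 in limma). None of 9 dendritic cell markers (766 to 831, against 703 to 740 after sham surgery), 6 tested B cell markers (197 to 207, against 186 to 192) or 11 endothelial markers (19700 to 21700, against 18800 to 21000) was called. Of these, 2, 6 and 4 had an unadjusted p under 0.05 in limma, beside 19.2% of all tested genes. So did 11 pan-leukocyte, 12 macrophage and 3 T and natural killer cell markers. B cell markers lay at low values, with a mean log2 value of 4.85 to 4.92 after adrenalectomy, against 4.77 to 4.81 after sham surgery. All 13 gastric epithelial markers passed the filter, with a mean log2 value of 18.07 to 18.14 after adrenalectomy, against 17.96 to 18.17 after sham surgery, and none was called (1 at an unadjusted p under 0.05).

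**Figure D5:**
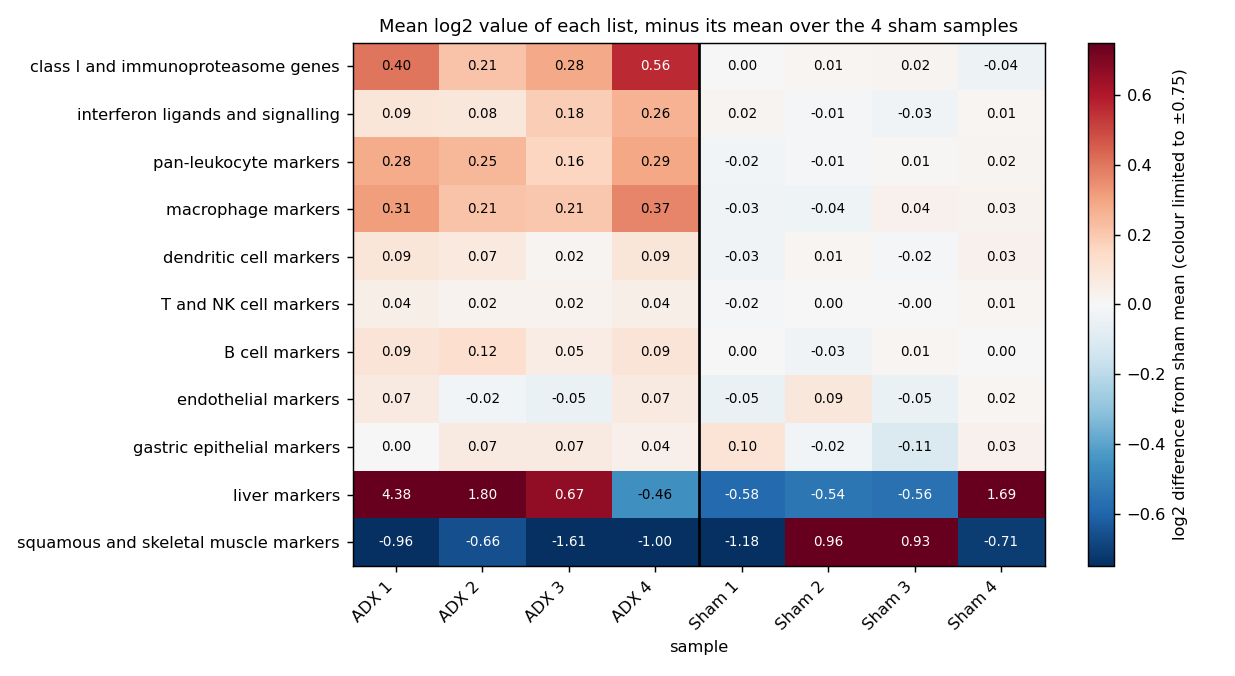
Mean log2 value of each marker list per sample minus its mean over the 4 sham samples, adrenalectomy (ADX) left and sham right of the line, with colour limited to ±0.75. The 10 genes and the interferon, pan-leukocyte, macrophage, dendritic, T and NK, and B cell lists are positive in all 4 ADX samples. Liver and squamous or muscle markers vary within both groups, with median ADX minus sham differences of 1.91 and -0.93.

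As a check of the operation, 3 of 5 glucocorticoid-induced genes, Per1, Fkbp5 and Klf9, fell by 1.04, 1.03 and 0.68 on the log2 scale after adrenalectomy. The other two, Tsc22d3 and Zbtb16, differed by -0.24 (adjusted p = 0.102) and -0.42 (adjusted p = 0.398). RNA of neighbouring tissues differed among samples within both groups. The mean log2 value of liver markers was highest in adrenalectomy replicate 1, at 14.33, with the remaining adrenalectomy samples at 9.49 to 11.75, against 9.37 to 11.64 in sham samples. That of squamous epithelium and skeletal muscle was 8.88 to 9.83 after adrenalectomy, against 11.45 and 11.42 in sham replicates 2 and 3 and 9.31 and 9.78 in sham replicates 1 and 4. When these 3 samples (adrenalectomy 1, sham 2 and sham 3) were dropped together, the log2 differences were 0.48 for H2-Q4, 0.42 for B2m and 0.34 for H2-T23, beside 0.47, 0.46 and 0.39 with all samples, and all 10 remained positive. None of the 10 genes, and none of all genes, was then called, with 9 of the 10 and 1822 genes in all at an unadjusted p under 0.05. H2-Q10, a class I chain gene of the liver named here after its values were seen, stood at 12.71, 10.15, 9.35 and 8.89 after adrenalectomy, against 8.60, 8.57, 8.92 and 9.86 after sham surgery. Its log2 difference was 1.29 ± 0.78 SE with all samples and 0.48 without adrenalectomy replicate 1. With all samples and the liver score as a covariate it was 0.10.

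Each of the 3 calls was lost when certain single samples were left out. Without adrenalectomy replicate 1 or 3, or sham replicate 2, 3 or 4, none of the 10 genes was called in limma, with 9 or 10 of them at an unadjusted p under 0.05. Over all tested genes these 5 fits called 0.16% to 0.509%, and 14.6% to 18.1% had an unadjusted p under 0.05. Without adrenalectomy replicate 2 the call of H2-T23 was kept, without adrenalectomy replicate 4 that of H2-Q4, and without sham replicate 1 H2-K1, H2-D1, H2-T23 and H2-Q4 were called. The last fit called 633 genes in all, or 3.75%, beside 289 with all samples, and the other two 51 and 53 genes, or 0.302% and 0.314%. The log2 differences across these 8 fits were 0.39 to 0.52 for H2-Q4, 0.35 to 0.45 for H2-T23 and 0.40 to 0.53 for B2m. Without adrenalectomy replicate 4 the log2 difference of Nlrc5 was 0.26, beside 0.37 with all samples.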

How the data were processed

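Stomach RNA was sequenced in 8 samples, 4 after adrenalectomy and 4 after sham surgery, grouped by their labels. The deposited log2 values per gene were normalized between samples by the authors, and the transformation is not named. Trim Galore, STAR, featureCounts, DESeq2 and the build mm9 are named per the submitters' processing notes, without versions. The sources used here state neither strand setting nor annotation, so reads of overlapping or similar genes may be shared. A further 8 per-sample columns were not used, and 26 date-named entries were left out.

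Genes with a mean linear value of at least 10 were tested with limma 3.58.1 in R 4.3.3 (intensity trend, no covariate), with Benjamini-Hochberg adjustment over all 16889 genes and a threshold of 0.05. Subunit pairs were compared with exact two-sided permutation tests over 70 splits. The fit was tested on simulated data, in which 62% of genes changed by 0.25 and 84% of those changed by 0.5 on the log2 scale were recovered. The simulated noise was independent for each gene, without variation shared by many genes of a sample, so recovery in the real samples may be lower. The 10 genes, lists and 3 samples left out together were chosen with earlier results of these data known. Named were the 10 genes, the called genes and up to 4 with the smallest p of each other pathway list, the constitutive counterparts and the 8 nearest profiles, and 1 gene that this rule names is not reported here. Promoters and start sites are from RefSeq (GRCm38.p6), and transcript lengths from GENCODE M21. The alternatives varied filter, variance model, scaling, samples, covariates and replicate block.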

Additional observations from a re-analysis of the deposited data

Results flagged for a closer look

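In 4 of 98 groups of 4 samples examined, 1 sample lay far from the other 3, and chance gives such a sample in about 1 in 20 groups. H2-T23 stood at a log2 value of 12.70 in adrenalectomy replicate 2, where the remaining 3 of its group lay at 12.93 to 12.97. Psmb10 stood at 10.70 in the same sample, against 11.01 to 11.06 in the others. Psmb7 stood at 13.17 in adrenalectomy replicate 4, against 13.07 to 13.08 in the others. Dtx3l stood at 11.53 in that replicate, against 11.17 to 11.21 in the others.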

How the results depend on the processing

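All 10 genes kept a positive difference in 190 of 190 values outside the fit with a pan-leukocyte score, and the cause of the changes given next was not tested. The calls were less stable: 289 genes, 3 of the 10 and 4 further pathway genes were called with all samples in limma. Without a filter on low values 170 genes, 0 of the 10 and 2 pathway genes were called, with median centring 156 genes, 1 of the 10 and 1 pathway gene, and with quantile normalization 2 pathway genes were called. Leaving out each sample in turn gave 27 to 633 genes, 0 to 4 of the 10 and 0 to 6 pathway genes. A liver score left 116 genes and 0 of the 10 (10 unadjusted), with differences of 0.50 for H2-Q4, 0.40 for H2-T23 and 0.44 for B2m. A squamous and muscle score, or leaving out 3 samples, left 0 in each count (2263 and 1822 genes unadjusted). The pan-leukocyte score left 0 in each count (971 genes unadjusted) and turned B2m to -0.07, Tap2 to -0.15, Psmb8 to -0.14, Nlrc5 to -0.25, H2-Q1 to -0.15, Psmb3 to -0.05, Psmb5 to -0.09, H2-Q10 to -1.46, C1qa to -0.02, C1qc to -0.0044, Ctss to -0.12 and Ifi47 to -0.33. The squamous score gave -0.01 for Pomp, -0.002 for Psmb2 and -0.0075 for Psmb5, and leaving out the 3 samples gave -0.0025 for Pomp and -0.02 for Psmb5. Psmb7, at -0.0053, ran from -0.03 to 0.01 with 1 sample left out (0.002, 0.004 and 0.00089 without adrenalectomy replicates 1, 2 and 3) and was 0.00013 with the liver score. With 1 sample left out, the shift of Psmb8 against Psmb5 was 0.33 to 0.44, of Psmb9 against Psmb6 0.23 to 0.34 and of Psmb10 against Psmb7 0.23 to 0.34. Samples with the same replicate number correlated at -0.289, 0.448, -0.118 and -0.635. Adrenalectomy replicate 1 and sham replicate 4 correlated at 0.635, so such values cannot show whether the numbers pair samples. With the replicate block 4 genes, 0 of the 10 (9 unadjusted) and 0 pathway genes were called in limma, and the shifts of Psmb8 and Psmb9 were 0.39 and 0.28 (exact sign-flip adjusted p = 0.188 for each, in a test of 4 pairs that cannot give an unadjusted p below 0.125 and so could not pass 0.05).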
